A study of Mus musculus with 8 samples.

Results

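The genes described here are 34 genes of microglia and macrophages, chosen by name for their known place in these cells. The rule uses no measured value, but the choice was made with earlier results of these data known. They are 34 of the 31417 genes in the deposited table. All 34 were found in it by symbol, 33 passed the filter on low counts, and Cst7 was the member that did not. The study sequenced polyadenylated RNA from the striatum of mice aged 12 months. There were 4 libraries of wild-type mice (labelled WT, the controls of the knockout) and 4 of mice labelled Dclk3 knock out. Each library came from a single striatum. The labels number the replicates but name no animals, so p-values measure the spread between these libraries. No treatment, strain, sex, Cre line or other allele is given in the sources used here for either group, nor the part of Dclk3 that was removed. The comparison asks what the loss of Dclk3, a kinase gene enriched in striatal neurons, does to gene expression in this tissue.

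Microglia are the resident macrophages of the brain. They depend on signalling through the receptor CSF1R, are specified by the transcription factors PU.1 (gene Spi1), IRF8 and SALL1, and in healthy tissue carry a set of sensing receptors, such as CX3CR1, P2RY12 and TMEM119, that is called homeostatic. In ageing, demyelination and models of neurodegeneration, signalling through TREM2 and its adaptor TYROBP accompanies a shift in which homeostatic genes go down and disease-associated genes such as Cst7, Itgax, Clec7a and Lyz2 go up. The members were therefore read in 6 groups: 3 C1q complement genes, 9 homeostatic genes, Csf1r with 2 transcription factors, 7 disease-associated genes, 8 genes of surface receptors and leukocyte signalling, and 4 lysosomal and other macrophage genes. In whole tissue, fewer cells of a type and less RNA per cell cannot be told apart.

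Total counts ran from 24441242 to 37145559 per library, and the 34 members together took 0.124% of all counts. Dclk3 itself was at 80.9 to 117 CPM (counts scaled to library size and composition) in wild type and 19.6 to 27.7 CPM in the knockout, so the libraries followed their labels. Medium spiny neuron markers, which define the striatum, summed to 4412 to 5244 CPM in wild-type libraries and 4377 to 5005 CPM in the knockout. Replicates of a genotype differed beyond sampling noise, by a chi-square of 7.12 to 32.7 for each degree of freedom. Wild-type replicate 4 stood apart in choroid plexus markers, at 2882 CPM in sum against 37.9 to 237 CPM in the other 7 libraries. Knockout replicate 4 had the highest level of Prkcd, Tcf7l2, Slc17a6 and Lef1, which mark thalamic neurons (Prkcd at 167 CPM against 10.6 to 69.9 CPM in the other 7 libraries), and the lowest of the cortical markers Slc17a7 and Neurod6. Counts over the groups of members are given with and without both of these libraries.

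None of the members passed the threshold between the genotypes. By the quasi-likelihood test of edgeR, adjusted after Benjamini and Hochberg over all 16511 genes tested, 0 of 33 members had an adjusted p under 0.05, against 0.00606% of all genes, and the adjusted p was 0.999 for each of the 33. That share is 1 gene, Dclk3 itself, so no other gene tested passed either. By an unadjusted p under 0.05, 1 member was counted, Ctss, with the knockout higher, against 3.76% of all genes, 1.96% with the knockout higher and 1.79% lower. This count depended on single libraries. It was 4 when wild-type replicate 1 was left out and 3 when knockout replicate 2 was, both with Ctss, and 0 when replicate 4 of either genotype was left out. Without knockout replicate 1 it was 1, Olfml3 in place of Ctss, and without replicate 4 of both genotypes it was 1, C1qc, with the knockout lower. The genotypes overlapped in all 34 members, Cst7 included, while 1.93% of all genes tested showed no overlap, 1.07% with the knockout higher and 0.86% with it lower. Of the 33 log2 fold changes (knockout over wild type), 29 lay above 0, against 49.5% of all genes tested, and their median was 0.06, against -0.0011 for all genes. For 31 of the 33, all but Itgax and Clec7a, the 95% interval held no change as large as 1.5-fold, and for all 33 it held none as large as 2-fold.

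The excess of positive values was not seen without replicate 4 of both genotypes. Knockout replicate 4 had the highest value of 18 of the 33 members (54.5%), against 15.8% of all genes tested, and wild-type replicate 4 had the lowest of 17 (51.5%), against 14.2% of all genes. Without both libraries 17 members lay above 0 and 16 below, and the median was 0.0026. Leaving out the libraries that held these extremes lowers the values by itself, and where the excess came from was not tested. Without wild-type replicate 4 alone 21 of 33 lay above 0, with a median of 0.03, and without knockout replicate 4 alone 21 of 33, again with a median of 0.03. With any other single library left out, 25 to 30 of 33 lay above 0, with medians from 0.06 to 0.12. With limma-voom, which weights libraries by their quality, 20 of 33 lay above 0 and the median was 0.02. Wild-type replicate 1 was highest for 8 members, so a wild-type library lay at the upper end as well.

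**Figure D1:**
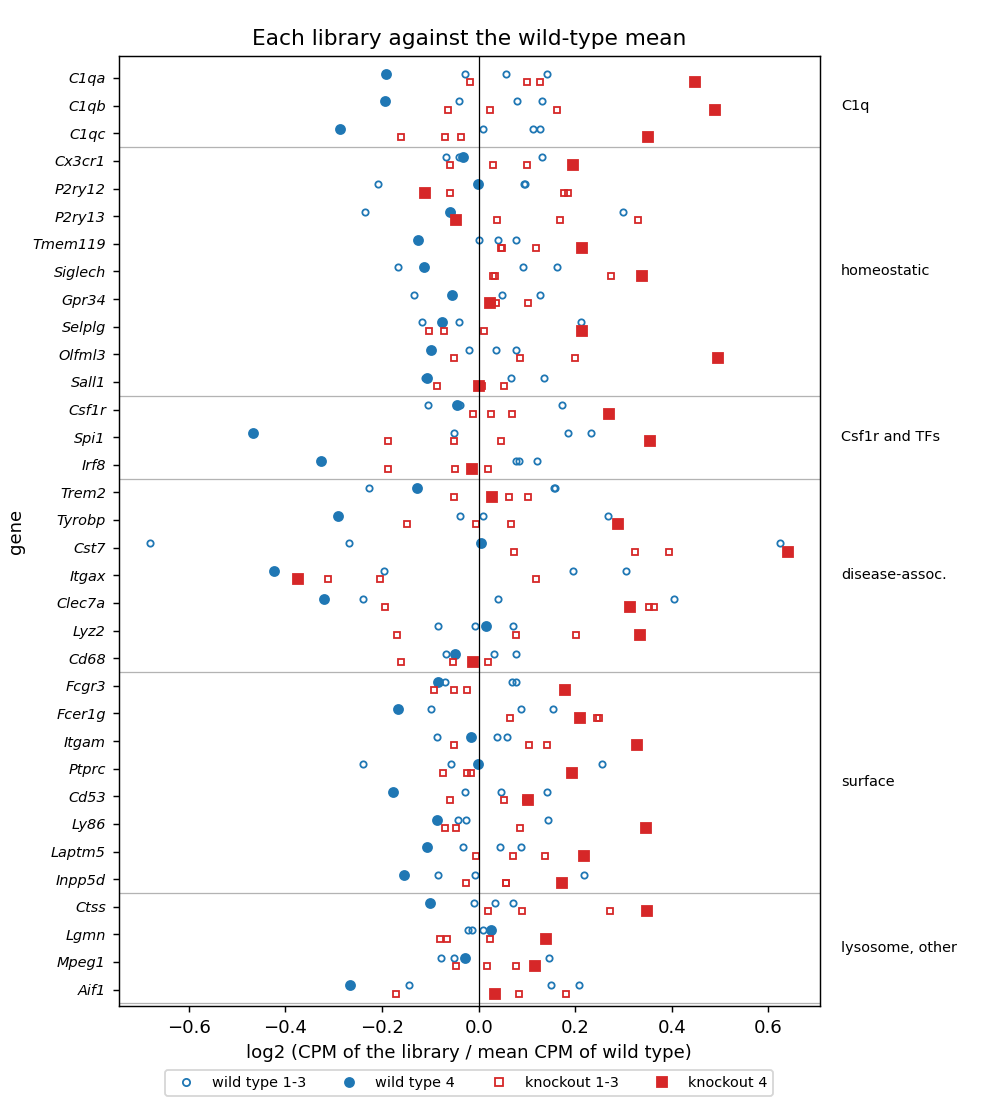
Level of each of the 34 members in each library, as the log2 ratio of its CPM to the mean CPM of the 4 wild-type libraries (x axis), by gene and group of genes (y axis); circles are wild-type and squares knockout libraries, and the filled symbols are replicate 4 of each genotype. The filled square lies farthest right for 18 of the 33 members tested, the C1q genes, Csf1r, Olfml3 and Ctss among them, but not for P2ry12, P2ry13, Sall1, Trem2 or Cd68, and the filled circle lies farthest left for 17.

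Levels of different genes were compared as CPM per kilobase of the summed exons. In wild type 14 of 34 members were above 10 on this scale, and 18 with the longest annotated transcript as the length. Ctss, which encodes the lysosomal protease cathepsin S, was the highest at 72.1 ± 3.68 (SD, n = 4), and its lowest library, 67.2, lay above the highest library of the next gene, C1qb, at 64.9. C1qb (59.2 ± 5.81), C1qa (57.4 ± 5.57) and Lgmn (55.9 ± 0.845), the gene of the lysosomal protease legumain, followed and did not differ beyond their spread. Tyrobp, C1qc, Csf1r, P2ry12 and Cx3cr1 made the next tier between 21.6 and 32.4, with neighbours in this order overlapping in single libraries. The lowest 4 were Clec7a (0.389), Ptprc (0.319), Cst7 (0.166) and Itgax (0.138). The order depends on the annotation. With the longest transcript as the length Ptprc, whose summed exons take 18313 bases, was at 1.02, Lgmn at 65.3, above C1qb (59.2) and C1qa (57.4), and C1qc at 43.2, above Tyrobp (36.2). The homeostatic genes P2ry12 and Cx3cr1 thus lay far above the disease-associated genes Itgax, Cst7 and Clec7a, while the disease-associated members Cd68 (11.6) and Lyz2 (9.04) lay among the homeostatic ones and Tyrobp (32.4) lay above them. Trem2 (4.37) lay just below the lowest homeostatic member, Olfml3 (4.57), and the 2 overlapped in single libraries.

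**Figure D2:**
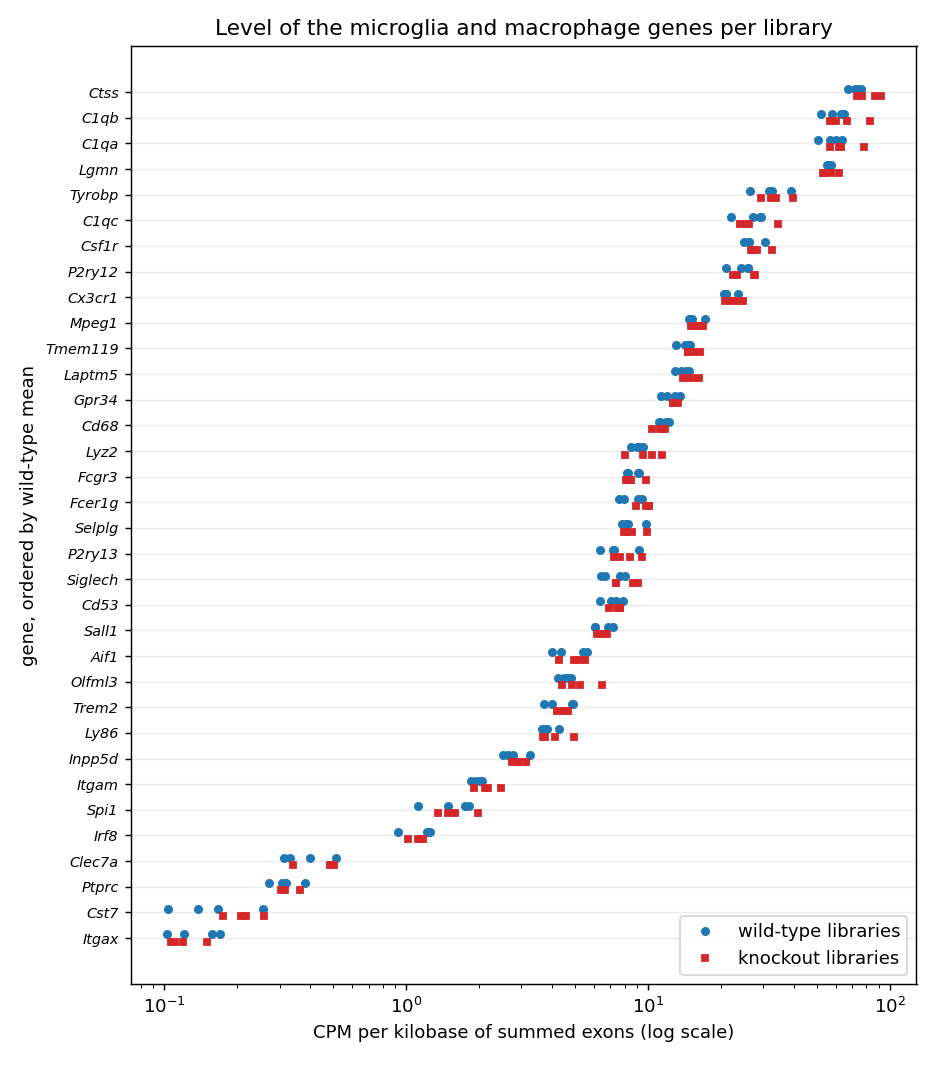
CPM per kilobase of summed exons (x axis, log scale) of the 34 members, ordered by their wild-type mean (y axis); each circle is a wild-type library and each square a knockout library. The order runs from Itgax at 0.138 to Ctss at 72.1, and circles and squares overlap in every row.

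The C1q genes encode the chains of the recognition molecule of the classical complement pathway, which in the brain is made mainly by microglia and tags synapses and debris. They lie next to each other on the minus strand of chromosome 4 of GRCm38 (mm10): C1qa (ENSMUSG00000036887) at 136895917 to 136898803, C1qc (ENSMUSG00000036896) at 136889804 to 136893065 and C1qb (ENSMUSG00000036905) at 136880129 to 136886187. Promoter sequences are given for C1qb and C1qc, for Ctss, the member with the smallest p, and for Trem2, the receptor of the disease-associated shift. RefSeq start sites (GRCm38.p6) gave windows of 250 bases before to 50 after the start for 27 of the 34 members, 34 windows in all. Each line gives the 250 bases before the start, 5′ to 3′ on the gene's strand, with capitals marking GAGGAA or its complement TTCCTC, the core letters bound by PU.1, and the longer form GAGGAAGT or ACTTCCTC.
C1qb (chr4:136886201-136886450, minus strand): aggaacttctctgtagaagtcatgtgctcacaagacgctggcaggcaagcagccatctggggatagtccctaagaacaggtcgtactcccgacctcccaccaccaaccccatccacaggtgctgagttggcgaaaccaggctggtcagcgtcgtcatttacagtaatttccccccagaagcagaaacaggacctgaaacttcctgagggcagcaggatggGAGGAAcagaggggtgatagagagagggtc
C1qc (chr4:136892915-136893164, minus strand): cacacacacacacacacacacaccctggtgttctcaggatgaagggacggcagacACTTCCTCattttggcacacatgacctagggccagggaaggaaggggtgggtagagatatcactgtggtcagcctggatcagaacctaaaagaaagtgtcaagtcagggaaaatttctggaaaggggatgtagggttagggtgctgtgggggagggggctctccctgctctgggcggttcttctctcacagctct
Ctss (chr3:95526536-95526785, plus strand): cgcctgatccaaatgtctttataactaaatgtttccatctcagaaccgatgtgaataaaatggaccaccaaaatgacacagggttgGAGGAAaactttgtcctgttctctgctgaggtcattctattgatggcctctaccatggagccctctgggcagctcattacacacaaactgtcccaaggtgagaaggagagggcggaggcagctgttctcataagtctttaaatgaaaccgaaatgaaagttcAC
Trem2 (chr17:48346151-48346400, plus strand): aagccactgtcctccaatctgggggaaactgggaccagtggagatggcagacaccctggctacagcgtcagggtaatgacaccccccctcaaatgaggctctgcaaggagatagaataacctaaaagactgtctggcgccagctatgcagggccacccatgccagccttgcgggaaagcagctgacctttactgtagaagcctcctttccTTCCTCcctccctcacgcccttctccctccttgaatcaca
The final capitals of Ctss are the first letters of an ACTTCCTC that runs past the start. GAGGAA was found on either strand in 15 of the 27 genes and in 50% of their windows, against 28.3% of all 32851 windows of this length. GAGGAAGT, which contains it, was in the windows of 4 genes, C1qc, Cd53, Ctss and Inpp5d, 11.8% of the windows against 3.2% of all. The composite element bound jointly by PU.1-type and IRF factors was in those of 2 genes, Cd68 and Clec7a, 8.82% of the windows against 2.72% of all. Clec7a and Fcgr3 each have 2 largely overlapping windows, and the shares of windows count their sites in both. These are matches of letters, and no binding was measured.

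C1qa was at 65.9, 58.6, 62.2 and 52.3 CPM in the wild-type libraries and at 65.2, 59.0, 64.0 and 81.5 CPM in those of the knockout, here and in what follows in the order of replicates 1 to 4. The highest value is knockout replicate 4 and the lowest wild-type replicate 4, and the other 6 libraries lie within 58.6 to 65.9 CPM with no separation of the genotypes. The means were 59.7 ± 5.79 and 67.5 ± 9.75 CPM (SD, n = 4 each), which gave a log2 fold change of 0.18 (SE 0.10, 95% interval -0.05 to 0.40), which was 0.013 without both of these libraries. C1qb measured 70.6, 62.7, 68.1 and 56.3 CPM in wild-type libraries and 65.4, 61.6, 72.1 and 90.5 CPM in the knockouts, for a log2 fold change of 0.17 (SE 0.12). It had the same extremes, and its value was -0.0147 without them. C1qc, with 56.2, 56.8, 52.3 and 42.6 CPM in wild-type libraries and 49.6, 50.7, 46.5 and 66.3 CPM in the knockout, had a log2 fold change of 0.03 (SE 0.12). In 3 of the 4 knockout libraries C1qc lay below the 3 highest wild-type libraries, and without replicate 4 of both genotypes its value was -0.17.

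Chains of one complex can be compared within a library. The ratio of C1qa to C1qb was 0.928 ± 0.01 in wild type and 0.936 ± 0.0507 in the knockout (SD, n = 4 each), so the pair kept nearly the same ratio in every library, between 0.888 and 0.997. The ratio of C1qc to C1qb was more variable, 0.807 ± 0.0684 in wild type and 0.74 ± 0.0732 in the knockout, lowest in knockout replicate 3 (0.645) and highest in wild-type replicate 2 (0.906). Knockout replicate 4, the library with the highest C1q levels, was within the range of the others for both ratios.

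The homeostatic group had 8 of 9 members above 0, with 0.07 as the median log2 fold change, and 0 of 9 passed the threshold. In the 6 libraries left without replicate 4 of both genotypes, 7 of 9 lay above 0 and the median was 0.04. Cx3cr1, the receptor for the neuronal chemokine fractalkine, was at 107, 92.8, 94.6 and 95.03 CPM in wild-type libraries and 104, 99.2, 93.4 and 111 CPM in the knockout. Wild-type replicates 2 to 4 lie close together and replicate 1 stands above them, inside the range of the knockout. Its log2 fold change was 0.07 (95% interval -0.08 to 0.22), and the predicted gene Gm33858 overlaps its exons on the opposite strand. This value was 0.01 without replicate 4 of both genotypes. Tmem119, a microglial surface marker of unsettled function, was at 34.7, 33.8, 32.9 and 30.1 CPM in wild-type libraries and 35.7, 33.97, 33.95 and 38.1 CPM in the knockout. Knockout replicates 1 and 4 lie above all wild-type values, replicate 1 by a narrow margin. The log2 fold change was 0.11 (SE 0.07), and 0.03 without replicate 4 of both genotypes.

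P2ry12 and P2ry13, adjacent genes of chromosome 3 for receptors that sense extracellular nucleotides, had a different order of libraries. P2ry12 (ENSMUSG00000036353, minus strand, 59216272 to 59262871) was at 65.9, 53.5, 66.1 and 61.7 CPM in wild-type libraries and 69.9, 70.2, 59.3 and 57.2 CPM in the knockout. Knockout replicate 4, highest for the C1q genes, was the lowest knockout library here, and wild-type replicate 4 lay in the middle of its group. P2ry13 was at 23.3, 16.1, 18.2 and 18.2 CPM in wild-type libraries and 23.8, 21.3, 19.4 and 18.3 CPM in the knockout, with knockout replicate 4 again the lowest of its group. The ratio of C1qb to P2ry12 ran from 0.913 to 1.17 in wild type and from 0.878 to 1.58 in the knockout, with 1.58 in knockout replicate 4, whereas the ratio of P2ry13 to P2ry12 stayed between 0.276 and 0.353 in all 8 libraries. The fold changes were 0.05 for P2ry12 (95% interval -0.14 to 0.24) and 0.13 for P2ry13 (95% interval -0.12 to 0.38) on the log2 scale, and 0.10 and 0.16 without replicate 4 of both genotypes. Exons of P2ry12 overlap those of Med12l on the opposite strand, a gene at 38.3 to 46.9 CPM. How strand was treated in counting is not known from the labels, so its value can include reads of Med12l.

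Sall1, the transcription factor gene that maintains the microglial state, was at 37.7, 36.0, 31.8 and 31.9 CPM in wild-type libraries and 35.6, 32.4, 34.5 and 34.4 CPM in the knockout. The knockout values lie inside the wild-type range, and the log2 fold change was -0.01 (95% interval -0.16 to 0.15). Olfml3, which encodes a secreted olfactomedin-domain protein, was at 29.7, 27.8, 28.8 and 26.3 CPM in wild-type libraries and 27.1, 29.8, 32.3 and 39.6 CPM in the knockout. Its log2 fold change of 0.20 (SE 0.10) had knockout replicate 4 as its highest library and was 0.05 without replicate 4 of both genotypes. Siglech, a sialic acid-binding lectin gene, was at 27.3, 21.7, 26.0 and 22.5 CPM in wild-type libraries and 29.4, 24.95, 24.9 and 30.8 CPM in the knockouts, for a log2 fold change of 0.18 (SE 0.10), with knockout replicates 1 and 4 above all wild-type libraries. It was 0.08 without replicate 4 of both genotypes. Gpr34, a receptor for lysophosphatidylserine, and Selplg, the P-selectin ligand, had log2 fold changes of 0.05 and 0.02.

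Csf1r, the receptor on which microglial survival depends, measured 155 ± 13.5 CPM in wild-type libraries and 166 ± 14.96 CPM in the knockouts (mean ± SD, n = 4 each), for a log2 fold change of 0.09 (95% interval -0.08 to 0.26), which was 0.01 without replicate 4 of both genotypes. It was the most abundant member per library, by CPM without regard to length, and 1 gene on the opposite strand, Hmgxb3, shares exon positions with it. Spi1, the gene of PU.1, measured 4.17 ± 0.858 and 4.33 ± 0.716 CPM and had a log2 fold change of 0.06, which was -0.19 without replicate 4 of both genotypes. Irf8, a partner of PU.1, measured 8.18 ± 1.11 and 7.87 ± 0.484 CPM, a log2 fold change of -0.05, with wild-type replicate 4 the lowest of all libraries at 6.52 CPM. Its log2 fold change was -0.17 without replicate 4 of both genotypes.

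The disease-associated group had 4 of 6 tested members above 0, with 0.05 as the median log2 fold change, and 0 of 6 passed the threshold. Without replicate 4 of both genotypes 3 of 6 lay above 0 and the median was -0.04. The values of Trem2 and Tyrobp were then 0.0026 and -0.11. Trem2 (ENSMUSG00000023992, chromosome 17, 48346401 to 48354147, plus strand), a receptor for lipids and lipoproteins, was at 24.1, 18.5, 24.1 and 19.8 CPM in wild-type libraries and 22.6, 20.9, 23.2 and 22.1 CPM in the knockout. The knockout libraries lie within the wild-type range, and the log2 fold change was 0.04 (95% interval -0.16 to 0.24). Tyrobp, the signalling adaptor of TREM2 also known as DAP12, was at 21.8, 21.1, 26.1 and 17.7 CPM in wild-type libraries and 22.7, 19.5, 21.6 and 26.4 CPM in the knockouts, for a log2 fold change of 0.06 (95% interval -0.20 to 0.32). The ratio of Trem2 to Tyrobp was 1.01 ± 0.125 in wild type and 0.994 ± 0.112 in the knockout (SD, n = 4 each).

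Cst7, Itgax and Clec7a, genes typical of the disease-associated state, were the least abundant members by CPM in both genotypes, and Cst7 was near the limit of detection. Cst7, which encodes the protease inhibitor cystatin F, had 4, 9, 3 and 6 counts in wild type and 5, 6, 6 and 7 counts in the knockout, or 0.102 to 0.253 CPM and 0.173 to 0.256 CPM, where 3 counts correspond to 0.0822 to 0.123 CPM. The genotypes overlap, and Cst7 did not pass the filter. With no filter its log2 fold change was 0.33 with a 95% interval from -0.67 to 1.33, so a change of 2-fold upwards could not be told from none at this depth. Itgax, the integrin chain CD11c, was at 0.578, 0.758, 0.818 and 0.493 CPM in wild-type libraries and 0.533, 0.575, 0.719 and 0.511 CPM in the knockouts, for a log2 fold change of -0.16 (95% interval -0.71 to 0.38). Clec7a, the beta-glucan receptor dectin-1, was at 1.36, 0.870, 1.06 and 0.822 CPM in wild-type libraries and 1.31, 0.898, 1.32 and 1.28 CPM in the knockouts, for a log2 fold change of 0.24 (95% interval -0.25 to 0.72), the highest of the members. By CPM the highest library of both Itgax and Clec7a was a wild-type library, replicate 3 (24 counts) for Itgax and replicate 1 (40 counts) for Clec7a. Clec7a was at 0.12 without replicate 4 of both genotypes, while Itgax was at -0.22 without them and at -0.05 without wild-type replicate 3.

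Lyz2, lysozyme of myeloid cells, was at 12.5, 11.8, 11.2 and 12.0 CPM in wild-type libraries and 12.6, 10.6, 13.7 and 15 CPM in the knockout. The knockout held both the lowest and the highest library, and the log2 fold change was 0.12 (SE 0.10), or 0.05 without replicate 4 of both genotypes. Cd68, a lysosomal membrane protein of phagocytes, was at 15.4, 14.9, 13.9 and 14.1 CPM in wild-type libraries and 13.04, 14.04, 14.8 and 14.5 CPM in the knockout. Its log2 fold change was -0.05 (95% interval -0.21 to 0.11), or -0.08 without replicate 4 of both genotypes.

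Homeostatic and disease-associated members were set against each other by library. Each library was given the median, over the tested members of a group, of the deviation in log2 CPM from the 8-library mean. The homeostatic median was -0.0439 ± 0.0998 in wild type and 0.0527 ± 0.0822 in the knockout, and the disease-associated median was -0.0399 ± 0.126 and 0.0349 ± 0.114 (SD, n = 4 each). The difference, disease-associated minus homeostatic, was -0.0393, 0.061, 0.103 and -0.109 in the wild-type libraries and -0.0342, -0.123, 0.134 and -0.0489 in those of the knockout, in the order of their numbers. The mean differences of 0.00405 ± 0.0959 and -0.0178 ± 0.109 were smaller than their spread, and both genotypes held values on either side of 0. The homeostatic and disease-associated groups did not part in opposite directions between the genotypes beyond the spread of the libraries.

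**Figure D3:**
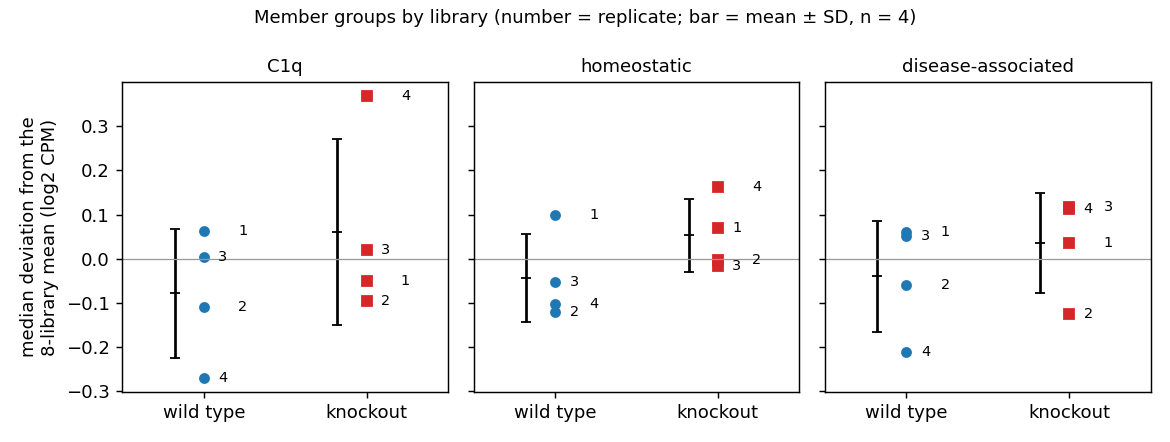
Median deviation of log2 CPM from the 8-library mean (y axis) over the C1q, homeostatic and disease-associated members, for each library by genotype (x axis); numbers are replicates and bars are mean ± SD, n = 4. Knockout replicate 4 is highest in the C1q and homeostatic panels and wild-type replicate 4 lowest in the C1q and disease-associated panels, and the genotypes overlap in all 3.

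The surface group had 8 of 8 members above 0, with 0.08 as the median log2 fold change, and 0 of 8 passed the threshold. Without replicate 4 of both genotypes 3 of 8 lay above 0, Fcer1g, Itgam and Laptm5, and the median was -0.02. Fcer1g, the signalling chain shared by Fc receptors, was at 8.30, 6.96, 7.91 and 6.63 CPM in wild-type libraries and 8.86, 8.83, 7.79 and 8.61 CPM in the knockout. Knockout replicates 1, 2 and 4 lie above all wild-type libraries and replicate 3 among them. Its log2 fold change, 0.19 (SE 0.10, 95% interval -0.03 to 0.42), was 0.14 without replicate 4 of both genotypes. Itgam, the integrin chain CD11b, was at 10.3, 10.2, 9.34 and 9.81 CPM in wild-type libraries and 10.95, 10.7, 9.57 and 12.5 CPM in the knockouts, for a log2 fold change of 0.13 (SE 0.09), which was 0.06 without them, and it shares exon positions with the predicted gene Gm49368 on the same strand. Laptm5, a lysosomal membrane protein of haematopoietic cells, was at 56.1, 51.6, 54.5 and 49.0 CPM in wild-type libraries and 58.1, 55.5, 52.6 and 61.4 CPM in the knockouts, for a log2 fold change of 0.11 (SE 0.07). For Laptm5, knockout replicates 1 and 4 lie above all wild-type libraries, and without replicate 4 of both genotypes its value was 0.03. The other members were Ly86 (0.09), which partners a Toll-like receptor homologue, Inpp5d (0.07), the phosphatase SHIP1, the tetraspanin gene Cd53 (0.05), Ptprc (0.02), which encodes the leukocyte antigen CD45, and Fcgr3 (0.01), a low-affinity IgG receptor, all as log2 fold changes.

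Ctss had the smallest p of the 33. Ctss (ENSMUSG00000038642, chromosome 3, 95526786 to 95556403, plus strand) was at 103, 97.3, 100.2 and 91.2 CPM in wild-type libraries and 118, 99.2, 104 and 125 CPM in the knockout. Knockout replicates 1, 3 and 4 lie above all wild-type libraries and replicate 2 lies among them. The means were 97.9 ± 4.99 and 112 ± 11.8 CPM (SD, n = 4 each) for a log2 fold change of 0.19 (SE 0.07, 95% interval 0.03 to 0.35). The unadjusted p was 0.0266, and adjusted over all genes (edgeR, Benjamini-Hochberg) it was 0.999. The log2 fold change was 0.10 without replicate 4 of both genotypes. Lgmn, at 130 ± 1.96 CPM in wild-type libraries and 131 ± 9.31 CPM in the knockout, had a log2 fold change of 0.01 (95% interval -0.12 to 0.13). Mpeg1, the pore-forming perforin-2 of macrophages, had 0.04 and Aif1, the actin-binding protein IBA1 used to stain microglia, had 0.04. Of the 4 genes of this group, 4 lay above 0 with all libraries and 2, Ctss and Mpeg1, without replicate 4 of both genotypes.

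**Figure D4:**
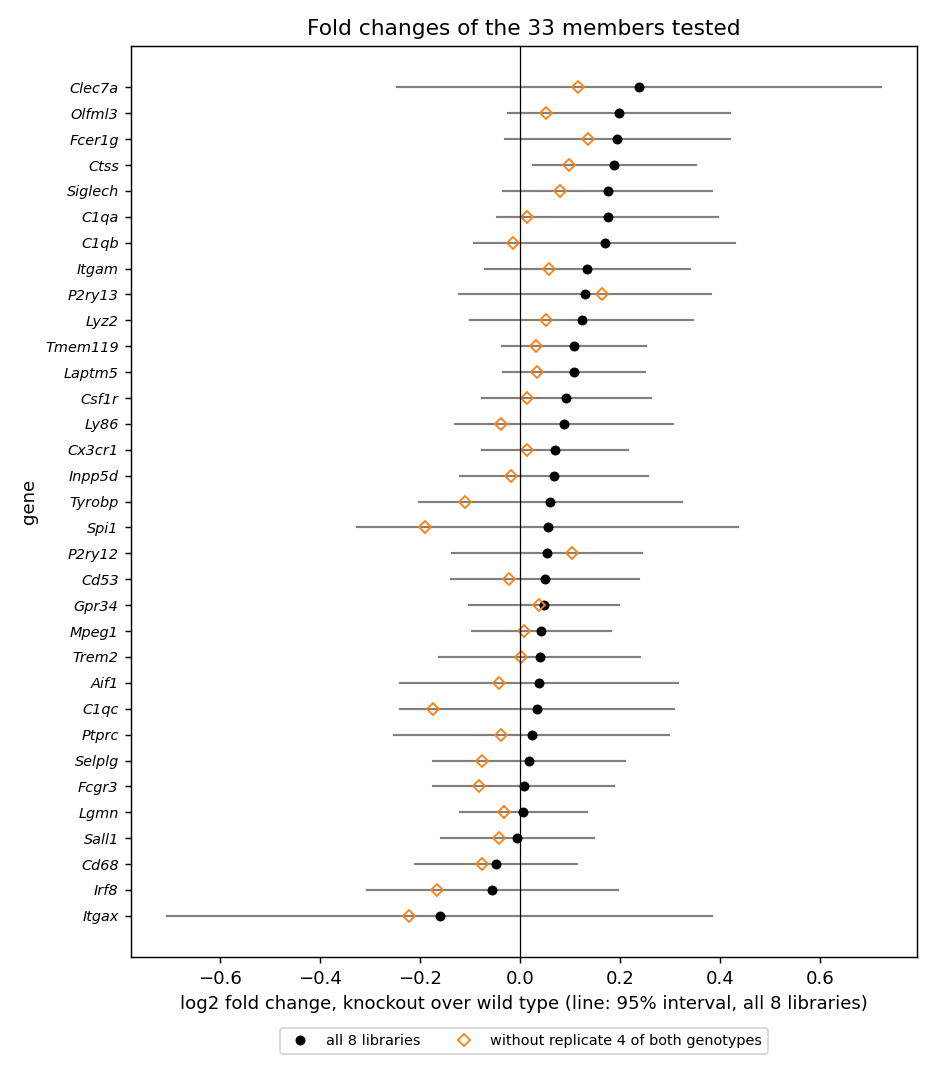
Log2 fold change, knockout over wild type (x axis), of the 33 members tested (y axis), with all 8 libraries (filled circles, with the 95% interval as a line) and without replicate 4 of both genotypes (open diamonds). With all libraries 29 of 33 circles lie above 0 and only the interval of Ctss leaves out 0; 17 of the 33 diamonds lie above 0.

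Members varied together across the libraries to different degrees. As a description over 8 libraries of both genotypes, in which all genes of a library share its depth and dissection, the correlation of a member's log2 CPM with the median of the other members was 0.943 for Laptm5, 0.929 for C1qa, 0.905 for Siglech and 0.897 for Tmem119. It was 0.0724 for P2ry12, 0.0451 for Cd68 and -0.319 for Itgax, whose counts are low. P2ry12 had 1568 to 2252 counts per library and Cd68 318 to 531. Their wild-type coefficients of variation, 9.55% and 4.70%, are set beside 9.69% for C1qa and 5.999% for Tmem119. The part of counting noise in these correlations was not tested.

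Other genes of the same biology were read from lists that hold no member. Of 10 other microglia-enriched genes, 0 passed the threshold, 8 lay above 0 and the median log2 fold change was 0.14, with Vsir, an immune checkpoint receptor, at 0.12 and Rnase4, a secreted ribonuclease, at 0.17. This list summed to 429.5 CPM in knockout replicate 4, its highest library, and 350.7 CPM in wild-type replicate 4, its lowest. Without both of these libraries 6 of 10 lay above 0 with a median of 0.05, and Rnase4 was at 0.08. Of 14 other disease-associated genes, 0 passed, 8 lay above 0 and the median was 0.03, with Spp1, osteopontin, at 0.38 (16.8 ± 3.95 and 21.95 ± 3.49 CPM, SD, n = 4 each) and Cd63, a tetraspanin of late endosomes, at -0.12. Wild-type replicate 4 was the lowest library of Spp1 and knockout replicate 4 the highest, and without them it was at 0.12, with 7 of the 14 above 0 and a median of -0.02. Several of these, Apoe among them, are also made by astrocytes or neurons. Of 11 ligands and partners of microglial receptors, 0 passed and 3 lay above 0, with a median of -0.03. When replicate 4 of both genotypes was left out, 7 lay above 0 and the median was 0.02. Tgfb1, the cytokine that maintains the homeostatic state, had a log2 fold change of -0.48 (5.15 ± 1.98 and 3.70 ± 0.776 CPM, SD, n = 4 each), with wild-type replicate 2 at 8.06 CPM and the other wild-type libraries at 3.591 to 4.501 CPM. Without wild-type replicate 2 it was -0.17, and without replicate 4 of both genotypes -0.63. Mertk, a receptor for dying cells, had 0.19, or 0.09 without replicate 4 of both genotypes.

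Of 10 complement genes beyond C1q, 0 passed, 8 lay above 0 and the median was 0.09, with Itgb2, the partner chain of CD11b and CD11c, at 0.15. Of the 10, 6 lay above 0 without replicate 4 of both genotypes, with a higher median of 0.11, and Itgb2 was then at 0.07. Of 8 genes that signal below TREM2 and Fc receptors, 0 passed and 4 lay above 0, with a median of 0.03, Plcg2, a phospholipase, at 0.20 and Lyn, a tyrosine kinase, at 0.08. Without replicate 4 of both genotypes 3 lay above 0 with a median of -0.05, Plcg2 at 0.08 and Lyn at 0.03. Of 12 inflammatory cytokines and mediators, 5 were abundant enough to test, 0 passed and 4 lay above 0, with the receptor gene Tlr2 at 0.21 and Nos2, the inducible nitric oxide synthase, at -0.26. The median of the 5 was 0.06 with all libraries. Without replicate 4 of both genotypes it was higher, at 0.11, with 3 above 0, Tlr2 at 0.11 and Nos2 at -0.21. With 1 library left out at a time Nos2 ran from -0.37 (without wild-type replicate 3) to -0.11 (without wild-type replicate 1). Il1b, Tnf, Il6, Ccl2, Ccl3, Ccl4 and Cxcl10 did not pass the filter. The whole list summed to 14.8 to 20.2 CPM in wild-type libraries and 15.6 to 24.4 CPM in the knockout.

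Markers of other blood-borne and border cells were measured beside the members. Perivascular and border macrophage markers, 7 of 8 tested, summed to 23.6 to 33.9 CPM in wild-type libraries and 26.2 to 36.1 CPM in the knockout, with 0 past the threshold, Pf4 at -0.51 and Cd163 at 0.31 on the log2 scale. With 1 library left out at a time, Pf4 ran from -0.66 (without wild-type replicate 3) to -0.24 (without wild-type replicate 4). Cd163 ran from 0.20 (without wild-type replicate 1) to 0.46 (without wild-type replicate 2). Of the 7, 5 lay above 0 with all libraries and 2 without replicate 4 of both genotypes. Monocyte, neutrophil and lymphocyte markers were all too low to test, at 0.952 to 1.23 CPM in sum in wild type and 0.747 to 2.34 CPM in the knockout. Red blood cell markers summed to 56.1 to 93.2 CPM in wild-type libraries and 88.9 to 155.7 CPM in the knockout, 155.7 CPM in replicate 1 and 122 CPM in replicate 4, with 5 of 5 above 0 and 0.48 as the median log2 fold change. Hbb-bt and Alas2 were at 0.67 each, and 3 of the 5 had an unadjusted p under 0.05 in edgeR's test, against 3.76% of all genes tested. Hbb-bt has a near-identical copy. Knockout replicate 4 was thus the highest library for 18 of the microglial members and the second highest for red blood cell markers, and oligodendrocyte, astrocyte and endothelial markers had medians of 0.17, 0.12 and 0.21. Knockout replicate 1, highest for red blood cell markers, was highest for 2 members. Without replicate 4 of both genotypes the red blood cell median was 0.53, with 5 of 5 above 0. Oligodendrocyte, astrocyte and endothelial medians were then 0.11, 0.12 and 0.23, and that of the members 0.0026. The part of these cells, or of the dissection, in the members' values was not tested.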

How the data were processed

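RNA of 8 striatum libraries (4 wild-type, 4 Dclk3 knockout) was prepared with a stranded poly(A) kit, per the labels' protocols. The authors deposited a table of raw counts per gene and library. The submitters' processing notes name bcl2fastq 2.17.1.14 and the build mm10, while no aligner, counting program, annotation or strand setting is given in the sources used here. Groups and replicate numbers come from the labels. Of 31417 gene identifiers, 31292 matched GENCODE M21 (GRCm38) for symbols, exon lengths and positions, and the 125 without a match held 0.0436% of the counts.

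In R 4.3.3, edgeR 4.0.16 was run on all genes: filterByExpr with a minimum count of 10 (16511 genes kept, 14906 left out), TMM scaling, a robust quasi-likelihood fit on genotype alone, a two-sided test, and Benjamini-Hochberg adjustment over all genes tested at a threshold of 0.05. CPM values are TMM-scaled, and levels per kilobase divide CPM by the summed exon length. Each log2 fold change sets the knockout over the wild type, with standard errors and 95% intervals from the quasi-likelihood statistic. With 3 counts as the floor, the lowest level that could be told from 0 was 0.0822 to 0.123 CPM by library, which covers counting error only.

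Named genes were the members and, of each other list, the pair with the smallest p. A gene that this rule names is not reported here. Full values by library are given for the 10 members with the smallest p, the C1q and disease-associated genes, Cx3cr1, P2ry12, Tmem119 and Sall1. Some were added after their values were seen: P2ry13, all ratios between genes, Apoe, and the thalamic genes Prkcd, Tcf7l2, Slc17a6 and Lef1. So were the named markers of blood leukocytes, Gfap and Sox9. The members and lists were chosen with earlier results of these data known. Alternatives were other scalings and filters, DESeq2 1.42.0, limma-voom (limma 3.58.1), the replicate number as a block, and libraries left out. Simulated data with known changes for this comparison were run on 16511 genes. The share of changed genes recovered was 65.3% at 1.5-fold, 83.3% at 2-fold and 96% at 4-fold. Of the 539 calls in 3 draws, 5.19% were false. In the measured data 1 gene passed the same threshold. Because the Benjamini-Hochberg cut-off loosens as calls accumulate, these shares do not apply to a lone changed member in the measured data.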

Additional observations from a re-analysis of the deposited data

Results flagged for a closer look

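In groups of 4 libraries, a value was singled out where its gap to the nearest other library, divided by the range of the group, was above Dixon's 95% critical value of 0.829. Chance flags about 1 in 20 groups. Of 170 groups tested 12 were singled out, and among the members 4 of 68. In the members, wild-type replicate 1 was highest for Cx3cr1 at 106.5 CPM (others 92.84 to 95.03), knockout replicate 1 was highest for Gpr34 at 27.9 CPM (others 26.4 to 26.7), wild-type replicate 4 was lowest for Irf8 at 6.52 CPM (others 8.64 to 8.90) and knockout replicate 2 was lowest for Clec7a at 0.898 CPM (others 1.28 to 1.32). The 3 C1q genes in sum were highest in knockout replicate 4, at 238.3 CPM against 171.3 to 182.6 CPM in the other knockout libraries.

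Among markers of other cells, wild-type replicate 4 was highest for the choroid plexus list in sum, at 2882 CPM (others 37.9 to 86.8), for Folr1, a folate receptor of choroid epithelium, at 22.4 CPM (others 0.748 to 0.887), and for Kcne2, a potassium channel subunit of the same cells, at 18.2 CPM (others 0.205 to 0.374). Knockout replicate 1 was highest for Folr1 at 2.30 CPM (others 0.682 to 0.767). Wild-type replicate 2 was lowest for Hbb-bt at 4.83 CPM (others 9.18 to 9.75). Wild-type replicate 1 was highest for medium spiny neuron markers in sum at 5244 CPM (others 4412 to 4522), and wild-type replicate 3 for monocyte, neutrophil and lymphocyte markers in sum at 1.23 CPM (others 0.952 to 0.959).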

How the results depend on the processing

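Under all 16 settings 0 members passed the threshold, and the lowest adjusted p of any member was 0.524, without replicate 4 of both genotypes (edgeR with Benjamini-Hochberg adjustment). The count of members with an unadjusted p under 0.05 was 1 with all libraries, 0 to 4 with 1 library left out, 3 with no filter and 0 with limma-voom. The median log2 fold change of the members ran from 0.03 to 0.12 when 1 library was left out, that of the homeostatic members from 0.05 to 0.12 and that of the disease-associated members from -0.01 to 0.10. Without replicate 4 of both genotypes these medians were 0.0026, 0.04 and -0.04. With limma-voom and quality weights 20 members lay above 0 and the median was 0.02. Of 971 single-gene values over 61 genes, 919 kept their direction and side of the threshold and 52 changed sign, and 17 members kept their sign in every setting.

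Log2 fold changes that changed sign are given here, and the cause was not tested. Under limma-voom they were -0.0425 for C1qc, -0.0596 for Selplg, -0.0441 for Spi1, -0.00598 for Trem2, -0.0402 for Fcgr3, -0.0484 for Ptprc, -0.00264 for Lgmn, -0.00125 for Mpeg1 and -0.00237 for Aif1. Without replicate 4 of both genotypes they were -0.0147 for C1qb, -0.173 for C1qc, -0.0766 for Selplg, -0.191 for Spi1, -0.11 for Tyrobp, -0.0822 for Fcgr3, -0.0379 for Ptprc, -0.0229 for Cd53, -0.0372 for Ly86, -0.0179 for Inpp5d, -0.0311 for Lgmn, -0.0423 for Aif1, 0.561 for Folr1 and 1.07 for Kcne2. With 1 library left out at a time the lowest and highest were -0.0882 and 0.0956 for C1qc, -0.00996 and 0.104 for P2ry12, -0.0527 and 0.0952 for Selplg, -0.0401 and 0.0413 for Sall1, -0.0753 and 0.139 for Spi1, -0.0296 and 0.0953 for Trem2, -0.0252 and 0.162 for Tyrobp, -0.0555 and 0.0385 for Fcgr3, -0.0471 and 0.117 for Ptprc, -0.00478 and 0.1 for Cd53, -0.00961 and 0.138 for Ly86, -0.0402 and 0.0349 for Lgmn, -0.0419 and 0.114 for Aif1, -3.11 and 0.431 for Folr1 and -3.51 and 1.035 for Kcne2, and the values of Folr1 and Kcne2 were positive only without wild-type replicate 4.

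The labels number the replicates 1 to 4 in both genotypes. Deviations of same-numbered libraries from their group means correlated at 0.0373, 0.0205, 0.0532 and -0.276, and those of differently numbered libraries at -0.162 to 0.24. The labels name nothing but the number that such libraries share, and whether they share a batch was not tested. With the replicate block 0 members passed the threshold and the median was 0.06. Depth limits Cst7, Itgax and Clec7a, whose intervals include changes of over 1.5-fold.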

Other observations

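Markers of blood leukocytes, too low to test, were counted in single reads. Ly6c2, a marker of classical monocytes, had 0, 0, 0 and 1 counts in wild-type replicates 1 to 4 and 3, 4, 2 and 2 counts in the knockout, where 3 counts are the floor. S100a9, a calcium-binding protein of neutrophils, had 7, 3, 6 and 1 counts in wild type and 11, 5, 4 and 27 counts in the knockout, with 27 in replicate 4. Both genes were picked after their counts were seen.

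Among markers of other brain cells, 2 of 8 astrocyte genes, Gjb6 and Aldh1l1, had no overlap between the genotypes, with the knockout higher, where 1.07% of all genes tested did so, and 0 of 8 passed the threshold in edgeR's test. Of the 8, 6 lay above 0 and 2 below, Gfap at -0.21 and Sox9 at -0.03 on the log2 scale. Wild-type replicate 2 was the highest library of Gfap, at 385 CPM. Ratios of members to P2ry12, chosen after the values were seen, were 0.238 ± 0.029 in wild type and 0.222 ± 0.0337 in the knockout for Cd68, and 0.194 ± 0.0213 and 0.206 ± 0.05 for Lyz2 (SD, n = 4 each).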
